A study of Saccharomyces cerevisiae with 8 samples.

Results

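The genes of sugar uptake, glycolysis and alcoholic fermentation were followed in budding yeast exposed to TFM, a nitrophenol used against lampreys and known as an uncoupler of oxidative phosphorylation. They are 39 genes of 5449 measured, chosen by function and found by symbol in the annotation of the array. Of them 15 encode hexose transporters, 4 encode glucose sensors or co-repressors, 3 encode the kinases that phosphorylate hexose, 5 belong to upper glycolysis, 8 to lower glycolysis and 4 to fermentation. HXT9, HXT13 and HXT17 had more than 1 probe set, and the probe set with the highest mean was used. All cultures were strain BY4741, a haploid laboratory strain of mating type a that lacks URA3, LEU2 and MET17, grown to saturation in YPD, a rich glucose medium. Controls (n = 2) were taken just before treatment with the solvent alone, 2% isopropanol, and stand for time zero. Treated cultures received 0.05 mM TFM in the same solvent for 1 h (n = 2), 2 h (n = 2) or 4 h (n = 1, a single RNA sample read on a pair of technical arrays). No solvent control was taken at the later times, so exposure to TFM and time after time zero cannot be told apart.

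Yeast takes up hexose by facilitated diffusion through the HXT carriers, which differ in their affinity for glucose. The plasma membrane proteins Snf3 and Rgt2 sense glucose outside the cell and send Mth1 and Std1 to degradation. Mth1 and Std1 otherwise hold HXT genes off together with the repressor Rgt1. Inside the cell, hexose is phosphorylated and split by glycolysis to pyruvate, and in fermentation pyruvate is turned into ethanol, which returns the NAD+ that glycolysis uses up. Cultures at saturation have usually used most of their glucose and live on ethanol, and an uncoupler limits the ATP that respiration of ethanol can give.

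Values are RMA values on the log2 scale, and a change is a difference of 2 such values, so 1 unit is a 2-fold change. Groups were compared with limma over all 7 RNA samples, with Benjamini-Hochberg adjustment over all 5449 genes, and a gene passed at an adjusted p under 0.05. Errors on changes are limma's standard errors (SE). Genes with a mean below the 25th percentile of all probe sets, 10.02, are called dim. That holds for 11 of the 39 genes, 9 of them transporters. The probe sets used for HXT7, HXT9, HXT15 and HXT17 are named by the maker as shared by several transcripts and that of HXT13 as open to cross-hybridisation, so for these genes the member that moved is uncertain. The deleted genes URA3, LEU2 and MET17 lay at percentiles 0.073, 0.48 and 0.17 of all genes by mean value. Those of the a-cell genes STE2 and MFA1 lay at 72.2 and 77.9, and that of the alpha-cell gene STE3 at 12.2. The list held 10 strain markers, and MFA2, BAR1, MF(ALPHA)1 and MF(ALPHA)2 are not given singly. Of the 10, 1 fell at 4 h by the test, where 3.73% of all genes fell, and 2 passed the F test, where 6.51% did. Changes of the 10 at 4 h ran from -2.10 to 0.17. From 2 h to 4 h 1 of the 10 passed, a fall, where 0.863% of all genes passed. Their changes over that step ran from -2.74 to 0.33, and -2.74 was also the lowest over all genes. The marker with these falls is not named here, so the markers are not a full check of the strain. Array medians ran from 11.03 to 11.11. Over 17 control probe sets for ribosomal RNA the median ran from 9.76 in control replicate 1 to 13.03 in 2 h replicate 2. Control transcripts read higher at their 3' end than at their 5' end by a mean of 1.55 in control replicate 1 and of 1.25 to 1.36 on the other arrays (10 pairs of probe sets). RNA came from whole cultures, so fewer cells with a transcript and less of it per cell cannot be told apart.

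Few of these genes passed the test against time zero. At 1 h HXT8, for a transporter, and STD1, for a co-repressor, rose, and PDC6, for a pyruvate decarboxylase, fell: 3 of the 39, or 7.69%, where 4.99% of all genes passed. At 2 h 0 of the 39 passed, with 0.11% of all genes passing, and at 4 h 0 of the 39, with 4.46% of all genes passing. By limma, an unadjusted p under 0.05 was reached by 12 of the 39 at 1 h, 4 at 2 h and 9 at 4 h, which is 30.8%, 10.3% and 23.1%. Over all genes it was reached by 27.5%, 12.3% and 19.8%. The share called at 1 h lay near the background. The 4 h comparison rests on a single RNA sample. The F test over the 3 time points passed HXT8 and STD1, 2 of 39, where 6.51% of all genes passed. Their medians were -0.04 at 1 h, 0.03 at 2 h and 0.06 at 4 h, beside -0.03, -0.02 and 0.00 over all genes.

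The calls at 1 h depended on which libraries entered the fit. HXT8, STD1 and PDC6 all missed the threshold without control replicate 1, as they did without either 2 h replicate, and in a fit of only the groups compared. Without control replicate 2 there were 7 calls (17.9%, where 7.08% of all genes passed). Without 1 h replicate 1 there were 10 (25.6%, where 18.4% of all genes passed). Without 1 h replicate 2 there was 1, STD1, where 1.08% of all genes passed.

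**Figure D1:**
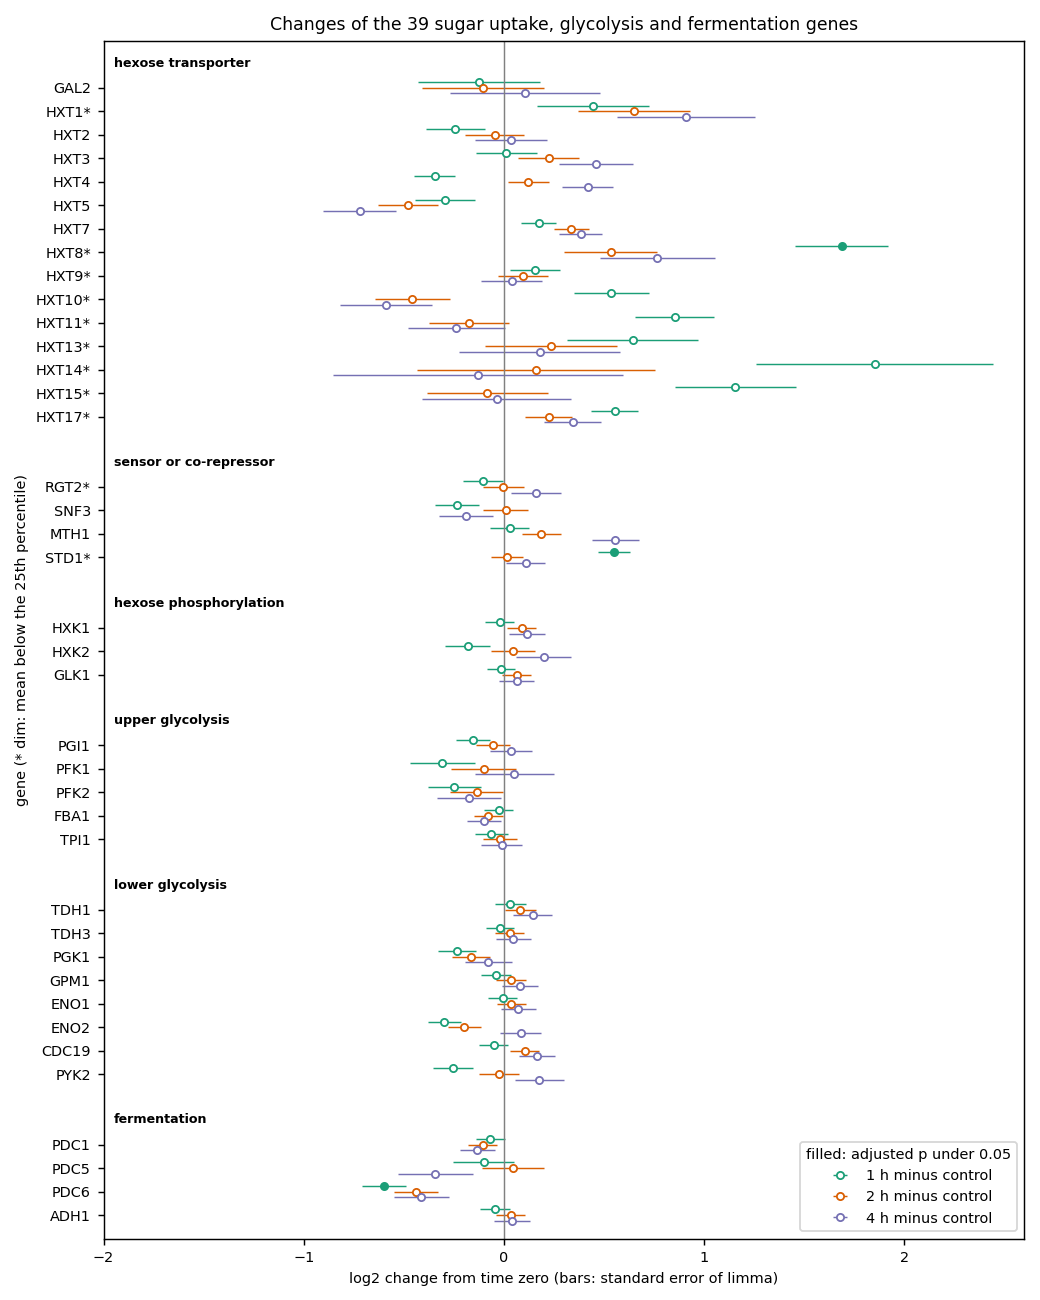
Log2 change from time zero (x axis) of each of the 39 genes (y axis, grouped by role) at 1, 2 and 4 h, with limma's standard error as bars; filled points have an adjusted p under 0.05. The filled points are HXT8, STD1 and PDC6 at 1 h; transporters spread from -0.72 to 1.85, while most enzymes lie close to 0.

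Among the transporters that were not dim, 0 of 6 passed against control at any time. At 4 h 5 of the 6 stood above time zero and HXT5 below it, where 51.5% of all genes not dim stood above. Their changes ran from -0.72 to 0.46. The 4 h value is that of 1 sample, and how often it lay outside both controls over all genes was not counted. HXT4, a carrier of fairly high affinity that is made when glucose is low, was lowest at 1 h. It read 12.98 and 12.90 at time zero, 12.72 and 12.46 after 1 h, 13.04 and 13.08 after 2 h, and 13.36 after 4 h. Both 1 h values lay below the controls and the 4 h value lay above every other sample. Its change was -0.35 (SE 0.10) at 1 h, 0.12 (SE 0.10) at 2 h and 0.42 (SE 0.13, adjusted p = 0.137) at 4 h. From 1 h to 4 h HXT4 rose by 0.77 (SE 0.13, adjusted p = 0.021 by limma), which is 1.70-fold, and without either 2 h replicate the adjusted p was 0.0652.

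HXT3, a low-affinity carrier used when glucose is plentiful, read 11.98 and 11.79 at time zero, 12.12 and 11.68 after 1 h, 12.13 and 12.08 after 2 h, and 12.35 after 4 h. The 1 h values enclosed those of the controls, and the later samples lay above them. The change at 4 h was 0.46 (SE 0.19, adjusted p = 0.241). HXT7, a high-affinity carrier with a near-identical neighbour in HXT6, read 13.66 and 13.76 at time zero, 13.80 and 13.96 after 1 h, 14.05 and 14.04 after 2 h, and 14.09 after 4 h. Every treated sample lay above both controls, and the change at 4 h was 0.38 (SE 0.11, adjusted p = 0.118). HXT1, the other main low-affinity carrier, was dim and read 9.06 and 8.23 at time zero, 9.29 and 8.90 after 1 h, 9.45 and 9.15 after 2 h, and 9.56 after 4 h. Its controls differed by 0.83, the 1 h values overlapped them, and the change at 4 h was 0.91 (SE 0.34, adjusted p = 0.213). Leaving out control replicate 1 gave 1.33 and leaving out control replicate 2 gave 0.49.

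HXT5, a carrier of moderate affinity tied to slow growth and stationary phase, went the other way. It read 13.22 and 12.76 at time zero, 12.67 and 12.73 after 1 h, 12.56 and 12.46 after 2 h, and 12.27 after 4 h. Every treated sample lay below both controls, with the lowest at 4 h. The change was -0.29 (SE 0.15) at 1 h, -0.48 (SE 0.15) at 2 h and -0.72 (SE 0.18) at 4 h, the last being 1.65-fold lower with an adjusted p of 0.0943 by limma. Without control replicate 1 the change was -0.49 (adjusted p = 0.125). HXT5 passed at 4 h without control replicate 2, the lower of the controls (-0.95, adjusted p = 0.043), with a trended prior (adjusted p = 0.0364) and over genes that were not dim (adjusted p = 0.0467). HXT5 lies next to HXT1 on chromosome VIII in the RefSeq gene table, with HXT4 1 gene beyond, so neighbours at this cluster stood on opposite sides of time zero at 4 h. HXT3 and HXT7, which lie on chromosome IV with 2 genes between them, both stood above it.

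HXT2, another carrier made at low glucose, differed from time zero by -0.24 (SE 0.15) at 1 h and by 0.04 (SE 0.18) at 4 h. GAL2, the galactose permease, differed by -0.12 (SE 0.31) at 1 h and by 0.10 (SE 0.37) at 4 h. The 1 h replicates of GAL2 read 10.65 and 9.62 and lay on either side of its controls. HXT1, HXT3 and HXT7 had group means that were higher at each step from time zero to 4 h, as did MTH1 and TDH1, 5 of the 39 in all. Means were lower at each step for HXT5, FBA1 and PDC1, 3 of the 39. Over all genes these shares were 5.49% and 7.12%.

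**Figure D2:**
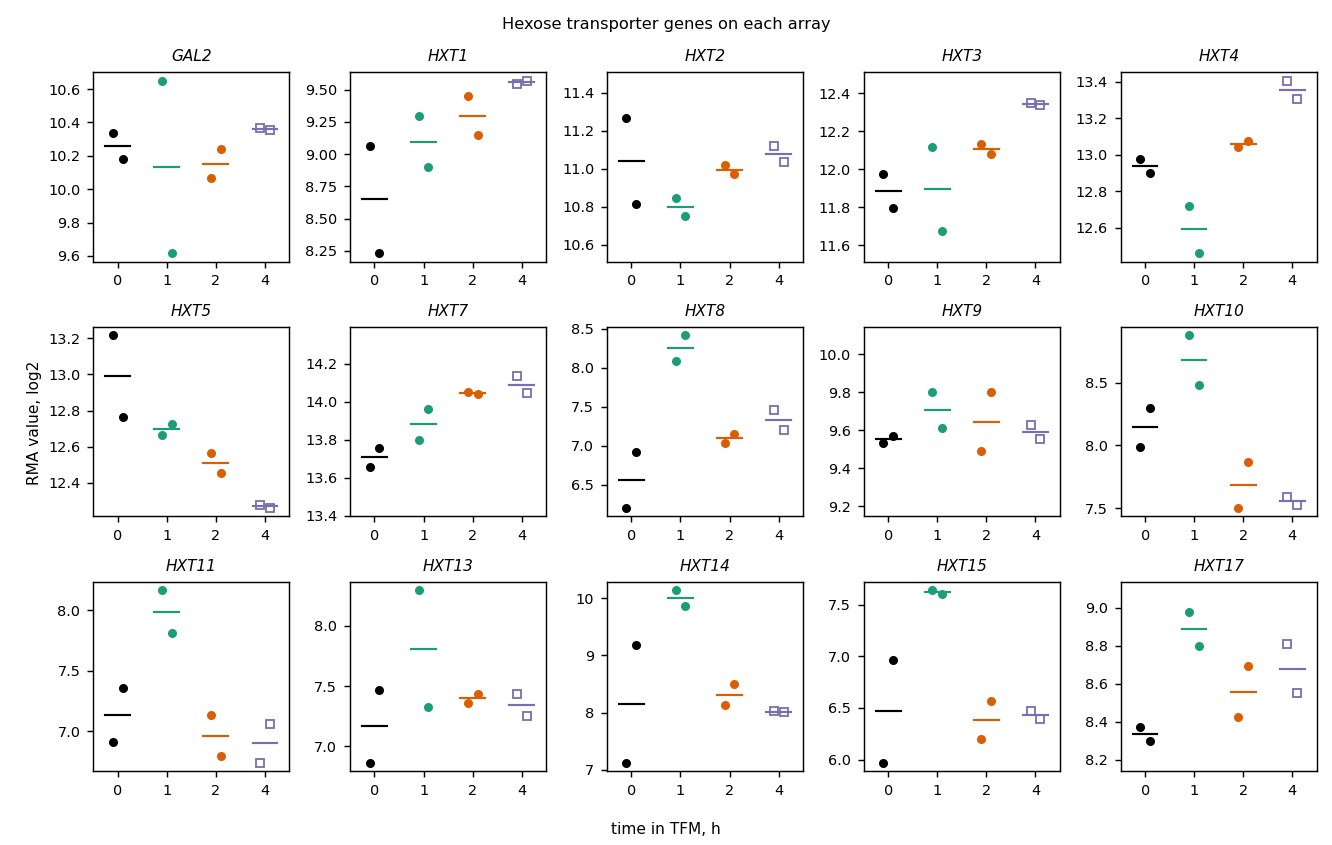
RMA value on the log2 scale (y axis, scaled separately in each panel) of the 15 hexose transporter genes against hours in TFM (x axis). Filled circles are single RNA samples, open squares the technical arrays of the 4 h sample and bars the group means; HXT5 goes from 12.99 at time zero to 12.27 at 4 h, and HXT8 peaks at 8.25 at 1 h.

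The dim transporters stood highest at 1 h. Of 9, 9 stood above time zero at 1 h, with a median change of 0.64, and 8 of the 9 had their highest group mean there. The median was 0.46 without 1 h replicate 1 and 1.03 without 1 h replicate 2, with 9 of 9 above time zero in both. HXT1 alone was highest at 4 h. Of all 1319 dim genes, 58.2% stood above time zero at 1 h with a median change of 0.08, and 48.6% had their highest mean at 1 h. The part of that wider shift of dim genes in the transporters' values was not tested. The transporters' median was 0.38 after quantile normalisation and 0.70 after median centring, with 9 of 9 above time zero in both, while the median of all dim genes turned to -0.06 after quantile normalisation.

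At 1 h 135 of 1319 dim genes rose by the test, where 3.47% of all genes did. HXT8 was the only 1 of the 9 dim transporters among them. It read 6.20 and 6.92 at time zero, 8.08 and 8.41 after 1 h, 7.04 and 7.15 after 2 h, and 7.33 after 4 h. The 1 h values lay above all others, and every treated sample lay above both controls. The change at 1 h was 1.69 (SE 0.23, adjusted p = 0.0262 by limma), and it was 1.33 without control replicate 1 (adjusted p = 0.0689). By mean value HXT8 lay at percentile 1.61 of all genes, its signal is not shown to lie above background, and no fold is given. HXT8 encodes a carrier of low abundance whose part in glucose uptake is not settled. HXT9, its neighbour on chromosome X with 3 genes between them, differed by 0.15 (SE 0.12) at 1 h.

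HXT10 and HXT11 stood highest at 1 h and were lower at 4 h. HXT10 read 7.99 and 8.30 at time zero, 8.88 and 8.48 after 1 h, 7.50 and 7.87 after 2 h, and 7.55 after 4 h. Its 1 h values lay above the controls and its later values below them. HXT10 fell by 1.13 on the log2 scale from 1 h to 4 h (SE 0.23, adjusted p = 0.0326). HXT11, a hexose transporter gene also linked to drug sensitivity, read 6.91 and 7.36 at time zero, 8.17 and 7.81 after 1 h, 7.13 and 6.80 after 2 h, and 6.90 after 4 h. Again the 1 h values lay above both controls. From 1 h to 4 h HXT11 fell by 1.09 (SE 0.24, adjusted p = 0.0397), and without 1 h replicate 1 its change was -0.91 (adjusted p = 0.0612). Both calls were lost after quantile normalisation, where the changes were -0.73 (adjusted p = 0.072) for HXT10 and -0.59 (adjusted p = 0.133) for HXT11.

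HXT14 had the largest change of the 39 at 1 h without passing, since its controls read 7.13 and 9.18. At 1 h it read 10.14 and 9.86, at 2 h 8.13 and 8.49, and at 4 h 8.02. The 1 h values lay above every other sample and the change was 1.85 (SE 0.59, adjusted p = 0.113). Without control replicate 2 it was 2.88 (adjusted p = 0.00423), and without control replicate 1 it was 0.83 (adjusted p = 0.155). HXT15 differed by 1.16 (SE 0.30, adjusted p = 0.0745), HXT13 by 0.64 (SE 0.33) and HXT17 by 0.55 (SE 0.12, adjusted p = 0.0522) at 1 h. HXT15 differed by 0.66 without control replicate 1 (adjusted p = 0.174) and by 1.65 without control replicate 2 (adjusted p = 0.0081). HXT13 differed by 0.16 without 1 h replicate 1 and by 1.13 without 1 h replicate 2. HXT13, HXT15 and HXT17 belong to a group of closely alike carriers linked to polyol uptake. The second probe sets of HXT13 and HXT17 differed by 0.79 and 0.47 at 1 h, the same direction, and that of HXT9 by 0.09 at 1 h and -0.30 at 4 h, where the one used gave 0.04.

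The co-repressor genes stood highest at different times. STD1, which is dim, read 9.51 and 9.50 at time zero, 10.11 and 9.99 after 1 h, 9.49 and 9.56 after 2 h, and 9.61 after 4 h. The 1 h values lay above all others, and the 2 h values enclosed the controls. STD1 rose by 0.55 (SE 0.08, adjusted p = 0.0262) at 1 h, and fell by 0.53 from 1 h to 2 h (SE 0.08, adjusted p = 0.0344 by limma). It was the only gene of the 39 to pass between 1 h and 2 h, where 2.64% of all genes passed and 2.51% fell. That call was lost without 1 h replicate 2 (adjusted p = 0.0563) and without either 2 h replicate. From 1 h to 4 h STD1 fell by 0.44 (SE 0.10, adjusted p = 0.0392), which was 0.0571 without either control replicate. MTH1, its partner at the same promoters, read 11.88 and 11.71 at time zero, 11.82 and 11.83 after 1 h, 12.06 and 11.91 after 2 h, and 12.35 after 4 h. The 1 h values lay between the controls, and the 2 h and 4 h values lay above them. The change at 4 h was 0.56 (SE 0.12, adjusted p = 0.0559 by limma), and MTH1 rose by 0.53 from 1 h to 4 h (SE 0.12, adjusted p = 0.0392). Without 1 h replicate 2 that adjusted p was 0.0674.

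Neither sensor passed in any comparison. SNF3, which encodes the sensor of low glucose, read 11.65 and 11.44 at time zero, 11.42 and 11.21 after 1 h, 11.60 and 11.51 after 2 h, and 11.36 after 4 h. RGT2, for the sensor of high glucose, read 9.88 and 9.66 at time zero, 9.61 and 9.72 after 1 h, 9.79 and 9.75 after 2 h, and 9.93 after 4 h. Changes of both stayed between -0.23 and 0.16. Between 1 h and 4 h, 5 of the 39 passed, where 11.7% of all genes did. HXT4 and MTH1 rose, as 3.19% of all genes did, and STD1, HXT10 and HXT11 fell, as 8.53% did. Without either 2 h replicate 0 of these 5 passed, without 1 h replicate 1 there were 10 calls (25.6%, where 24.4% of all genes passed), and in a fit of only the groups compared HXT10 and HXT11 passed with 3 others (HXT8, HXT14 and HXT15). Between 2 h and 4 h 0 of the 39 passed, and 0.863% of all genes did. An unadjusted p under 0.05 was reached by 2 of the 39 (5.13%) and by 12.1% of all genes.

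Of the kinases that phosphorylate hexose 0 of 3 passed in any comparison. HXK1 and GLK1, a hexokinase and the glucokinase, are both repressed by glucose. HXK1 read 14.64 and 14.72 at time zero, 14.66 and 14.65 after 1 h, 14.75 and 14.78 after 2 h, and 14.79 after 4 h. GLK1 read 14.70 and 14.72 at time zero, 14.68 and 14.71 after 1 h, 14.80 and 14.75 after 2 h, and 14.77 after 4 h. Their changes from time zero lay between -0.02 and 0.12 at all 3 times. HXK2, the main hexokinase on glucose and a mediator of glucose repression, read 13.01 and 13.08 at time zero, 13.01 and 12.72 after 1 h, 13.05 and 13.14 after 2 h, and 13.24 after 4 h. Its low value was that of 1 h replicate 2, and the change at 4 h was 0.20 (SE 0.14, adjusted p = 0.465).

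In upper glycolysis, 5 of 5 genes stood below time zero at 1 h (4 of 5 after median centring) and 0 passed in any comparison. PFK1 and PFK2 encode the subunits of phosphofructokinase. PFK1 read 13.21 and 13.18 at time zero, 13.14 and 12.63 after 1 h, 13.06 and 13.13 after 2 h, and 13.25 after 4 h. PFK2 read 12.77 and 12.77 at time zero, 12.72 and 12.32 after 1 h, 12.62 and 12.64 after 2 h, and 12.59 after 4 h. In both genes the low value was again that of 1 h replicate 2, and the 1 h replicates differed by more than any other pair. Without 1 h replicate 1 the change of PFK1 at 1 h was -0.56 (adjusted p = 0.0239), and without 1 h replicate 2 it was -0.05. FBA1, for aldolase, read 14.33 in both controls, 14.28 and 14.32 after 1 h, 14.24 and 14.25 after 2 h, and 14.23 after 4 h. PGI1, phosphoglucose isomerase, differed by -0.15 (SE 0.09) at 1 h and 0.03 at 4 h, and TPI1, triose phosphate isomerase, by -0.06 (SE 0.08) and -0.01.

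In lower glycolysis 0 of 8 passed in any comparison. ENO2, the enolase made on glucose, came closest: it read 13.81 in both controls, 13.60 and 13.43 after 1 h, 13.61 and 13.62 after 2 h, and 13.90 after 4 h. All values at 1 h and 2 h lay below the controls and the 4 h value above them. The change was -0.30 (SE 0.08, adjusted p = 0.0832) at 1 h and 0.08 (SE 0.10) at 4 h, and the difference from 1 h to 4 h was 0.38 (SE 0.10, adjusted p = 0.0591). ENO1, its partner made without glucose, differed by -0.01 at 1 h and 0.07 at 4 h. PYK2, the pyruvate kinase made when glycolytic flux is low, read 13.15 and 13.10 at time zero, 12.98 and 12.76 after 1 h, 13.05 and 13.15 after 2 h, and 13.30 after 4 h. As with ENO2, both 1 h values lay below the controls and the 4 h value lay above all others.

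CDC19, the main pyruvate kinase, read 14.35 and 14.40 at time zero, 14.31 and 14.34 after 1 h, 14.45 and 14.51 after 2 h, and 14.54 after 4 h. The largest change was 0.17 (SE 0.09, adjusted p = 0.353) at 4 h. TDH1, a glyceraldehyde phosphate dehydrogenase linked to stationary phase, read 14.32 and 14.39 at time zero, 14.33 and 14.44 after 1 h, 14.45 and 14.42 after 2 h, and 14.50 after 4 h. The array carries further control probe sets for TDH1, and at 4 h these differed from time zero by 0.13 (3' end), 0.42 (middle), 0.05 (middle, shared) and 0.22 (5' end), of which 0 passed. TDH3 and GPM1 stayed within 0.08 of time zero at every time. PGK1, phosphoglycerate kinase, differed by -0.23 (SE 0.10) at 1 h and -0.08 at 4 h.

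**Figure D3:**
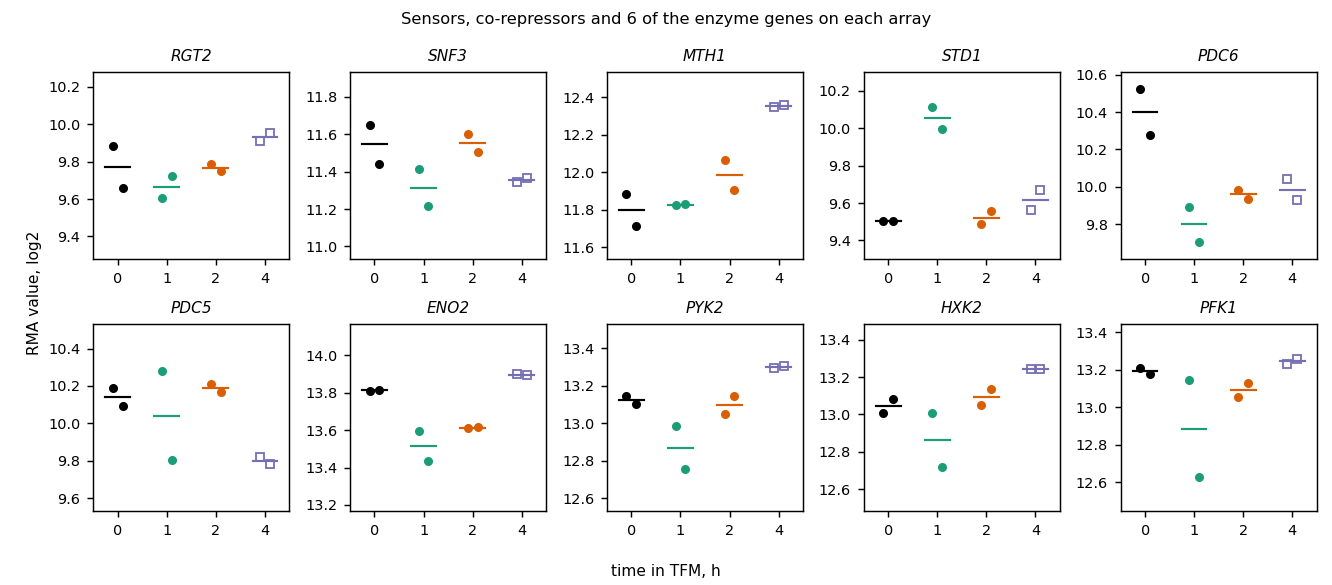
RMA value on the log2 scale (y axis, scaled separately in each panel) against hours in TFM (x axis) for RGT2, SNF3, MTH1, STD1 and 6 enzyme genes. Filled circles are single RNA samples, open squares the technical arrays of the 4 h sample and bars the group means; STD1 peaks at 10.05 at 1 h, MTH1 is highest at 12.35 at 4 h, and both controls of PDC6 lie above all treated arrays.

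In fermentation PDC6, a minor pyruvate decarboxylase that contributes little to the enzyme's activity on glucose and is induced when sulfur is short, was the 1 gene to fall at 1 h, where 1.52% of all genes fell. It read 10.52 and 10.28 at time zero, 9.89 and 9.71 after 1 h, 9.98 and 9.94 after 2 h, and 9.99 after 4 h. Its mean of 10.04 lay just above 10.02, the cut for dim genes. All treated samples lay below that cut, so PDC6 was kept out of the dim genes only by its controls. The same holds for its place as the 1 call left at 1 h over genes above the 25th percentile. Every treated sample lay below both controls. PDC6 fell by 0.60 (SE 0.11, adjusted p = 0.042 by limma) at 1 h, or 1.51-fold lower, and its change was -0.44 (SE 0.11, adjusted p = 0.209) at 2 h and -0.41 (SE 0.14, adjusted p = 0.162) at 4 h. PDC1, the main isoenzyme, read 14.10 and 14.12 at time zero, 14.01 and 14.08 after 1 h, 14.02 and 14.00 after 2 h, and 13.98 after 4 h. PDC5, which replaces PDC1 when it is lost, read 10.19 and 10.09 at time zero, 10.28 and 9.80 after 1 h, 10.21 and 10.17 after 2 h, and 9.80 after 4 h. The change of PDC5 at 4 h was -0.34 (SE 0.19, adjusted p = 0.359). ADH1, the alcohol dehydrogenase that makes ethanol, differed by -0.04 (SE 0.07) at 1 h and by 0.04 (SE 0.09) at 4 h.

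Across the 20 enzymes the 95% interval of the change, not adjusted for the number of genes, lay within a 2-fold change in either direction for 20 of 20 at 1 h, 2 h and 4 h. The same held for 5127, 5329 and 5126 of all 5449 genes. At 1 h 19 of 20 stood below time zero, with a median of -0.07, but after median centring the split was 11 below and 9 above. At 4 h 13 of 20 stood above it, with a median of 0.05. Before any centring their lowest group mean was at 1 h for 16 of 20, where 36.1% of all genes had theirs. Median centring shifted the median change of all genes by 0.056 at 1 h, 0.025 at 2 h and 0.029 at 4 h. The count of lowest means was not retaken after it, and many enzyme changes at 1 h were of that size. By mean value 13 of the 20 enzymes were among the 5% of genes with the highest mean, above 13.65, and the highest enzyme value, 14.96, lay just under the highest on any array, 15.01. Of 273 genes in that top 5%, 0 rose and 13 fell at 4 h, with changes from -1.03 to 0.44. The 13 enzymes there changed by -0.13 to 0.17. The part of the high signal in the small size of these changes was not tested.

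**Figure D4:**
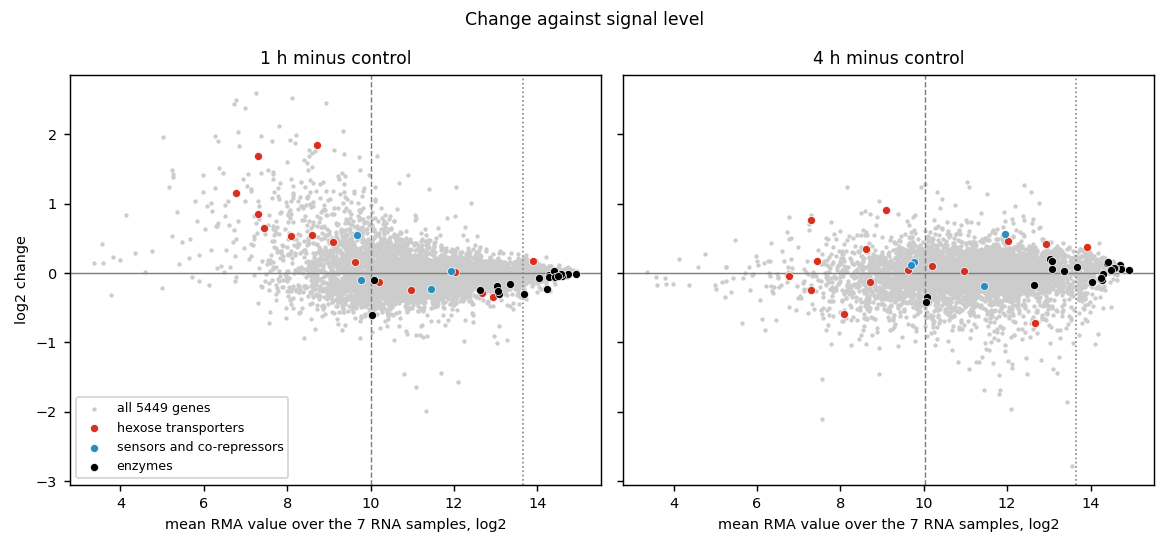
Log2 change from time zero (y axis) at 1 h and 4 h against the mean RMA value over the 7 RNA samples (x axis, log2), with all 5449 genes in grey and the 39 genes coloured by role. The dashed line marks 10.02, below which genes are called dim, and the dotted line 13.65, above which lie 5% of genes; dim transporters lie above 0 at 1 h among many dim genes that do so, and enzymes crowd the right edge near 0.

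Other genes of the pathway gave few calls against time zero. Of 23 measured genes of glucose signalling and repression 1 rose at 1 h, where 135 of 1319 dim genes and 3.47% of all genes rose. This was RAS1, a dim gene for a GTPase that activates adenylate cyclase, which rose by 1.03 (SE 0.14, adjusted p = 0.0262 by limma). Without control replicate 1 this was 0.93 (adjusted p = 0.106), and without either 2 h replicate the adjusted p was 0.0677. The list had 0 calls at 2 h and 4 h. RAS1 fell by 0.81 (SE 0.17, adjusted p = 0.0339) from 1 h to 4 h. CYR1, adenylate cyclase itself, differed by -0.35 at 1 h and 0.50 at 4 h and rose by 0.85 (SE 0.13, adjusted p = 0.0173) from 1 h to 4 h. Both of these 1 h to 4 h calls were lost without either 2 h replicate.

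Of 10 genes that regulate glycolysis 1 rose at 4 h. PFK27, a kinase that makes fructose 2,6-bisphosphate, the activator of phosphofructokinase, read 10.75 and 10.89 at time zero, 10.83 and 10.72 after 1 h, 11.24 and 11.14 after 2 h, and 11.58 after 4 h. Its 1 h values overlapped the controls and its later values lay above them. PFK27 rose by 0.76 (SE 0.11, adjusted p = 0.0256 by limma) at 4 h, 1.69-fold, where 0.734% of all genes rose. Without control replicate 1 the change was 0.69 (adjusted p = 0.0815), without control replicate 2 it was 0.83 (adjusted p = 0.052), and without either 2 h replicate the adjusted p was 0.0874. PFK27 rose by 0.81 from 1 h to 4 h (SE 0.11, adjusted p = 0.0139), a call lost without either 2 h replicate (adjusted p = 0.0501). TYE7, a transcription factor of glycolytic genes, rose by 0.51 (SE 0.12, adjusted p = 0.0447) from 1 h to 4 h, against a change of 0.34 (adjusted p = 0.189) from time zero to 4 h. Its call was lost after quantile normalisation (adjusted p = 0.0675), after median centring (adjusted p = 0.062), without either control replicate (adjusted p = 0.0646) and without either 2 h replicate (adjusted p = 0.112).

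Of 11 measured genes for other sugar carriers and sugar use 1 fell at 1 h, GAL3, the galactose sensor, by 0.45 (SE 0.09, adjusted p = 0.042), where 1.52% of all genes fell. From 1 h to 4 h GAL3 rose by 0.44 (adjusted p = 0.0465) and MAL31, a maltose permease gene, by 0.51 (adjusted p = 0.038). The 1 h call of GAL3 was lost without any 1 of 5 replicates, all but 1 h replicate 1, and both 1 h to 4 h calls were lost without 1 h replicate 2 or either 2 h replicate. That of GAL3 was also lost without either control replicate. Of 11 measured paralogous enzymes 1 fell at 4 h: ARO10, a phenylpyruvate decarboxylase related to the PDC enzymes, by 0.99 (SE 0.15, adjusted p = 0.0261), where 3.73% of all genes fell. It read 12.01 and 11.74 at time zero, 11.89 and 12.11 after 1 h, 11.34 and 11.35 after 2 h, and 10.89 after 4 h, so that the later samples lay below the rest. Without control replicate 1 the change was -0.85 (adjusted p = 0.0764), and without either 2 h replicate the adjusted p was 0.0874. ARO10 fell by 1.11 from 1 h to 4 h (adjusted p = 0.0135). It passed under all 15 alternatives run, some of which were the same fit for this comparison, with changes from -1.22 to -0.998. GPM2, a paralogue of GPM1, rose by 0.46 (SE 0.09, adjusted p = 0.0296) from 1 h to 4 h. The call of GPM2 was lost without either 2 h replicate (adjusted p = 0.0947).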

How the data were processed

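Total RNA was hybridised as biotin-labelled cRNA to 8 1-colour Affymetrix arrays. The deposited values were taken as log2 from their range and were made with RMA, per the submitters' processing notes, in a version not given in the sources used here. The arrays do not share 1 distribution (5th percentiles from 7.91 in control replicate 1 to 8.40 in 1 h replicate 2), and the scaling step is not stated. Of 5814 probe sets 5498 had 1 gene name, 0 several and 316 none, 12 symbols were updated through the RefSeq gene table (R64), and the highest-mean probe set of each gene left 5449 genes. The 2 arrays at 4 h were averaged to 1 sample, assumed to vary like the other groups. limma 3.58.1 in R 4.3.3 (lmFit, eBayes) was fitted to 7 RNA samples in 4 groups (3 residual and 3.36 prior degrees of freedom). The labels call the replicates biological but name no separate cultures, so p-values measure the spread between these samples only. Tested on simulated data with 200 of 5449 genes changed, limma found 87.5%, 86.5% and 80.4% of 2-fold changes at 1, 2 and 4 h, with 8.3, 10.6 and 9.3 false calls. The simulation drew independent noise with the same spread in every group. In the data the root mean square standard deviation was 0.174 at 1 h and 0.085 at 2 h, so these figures need not hold for them. The genes and lists were chosen with earlier results of these data known. Values in every sample were given for genes that passed in any comparison and the 3 per role with the largest change at 4 h; HXT3, HXT7, HXT14 and ENO2 were added after their values were seen, as were PFK27 and ARO10. Genes of the other lists were named where they passed. Alternatives changed the prior, scaling, filter, probe sets, 4 h array and samples fitted; those for single genes between time points and for the other lists were added after seeing the data. Sequences were not used here. The number of arrays limits the precision.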

Additional observations from a re-analysis of the deposited data

Results flagged for a closer look

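For 5 of the 39 genes the change from time zero differed between time points by limma's test of that difference, and these are the results to look at again. From 1 h to 4 h 12.8% of the 39 passed, where 11.7% of all genes did. From 1 h to 2 h it was 2.56%, where 2.64% of all genes passed. Both shares lay near those of all genes, and the calls depended on the 2 h replicates, as given above. The difference from 1 h to 2 h was -0.53 for STD1 (SE 0.08, adjusted p = 0.0344). From 1 h to 4 h it was 0.77 for HXT4 (SE 0.13, adjusted p = 0.021), 0.53 for MTH1 (SE 0.12, adjusted p = 0.0392), -0.44 for STD1 (SE 0.10, adjusted p = 0.0392), -1.13 for HXT10 (SE 0.23, adjusted p = 0.0326) and -1.09 for HXT11 (SE 0.24, adjusted p = 0.0397). HXT4 and MTH1 were thus lower at 1 h than at 4 h, and the other 3, all dim, were higher at 1 h. In each case the 4 h value is that of 1 RNA sample.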

How the results depend on the processing

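Of the 3 calls at 1 h, 0 changed sign under any alternative, nor did the 1 call between 1 h and 2 h or the 5 between 1 h and 4 h. The cause of the changes in counts below was not tested, except that a filter tests fewer genes and fitting only the groups compared uses fewer samples. The count of 3 at 1 h became 1 over genes above the 25th percentile, 0 with only the groups compared and 5 with the replicate block, and 0 to 10 with 1 replicate left out. At 4 h against control the count of 0 became 3 with a trended prior (HXT5, HXT7 and MTH1) and 2 over genes above the 25th percentile, and 0 to 1 with 1 replicate left out. Between 1 h and 2 h the count of 1 became 3 with a trended prior, 2 after quantile normalisation, 3 after median centring, 0 over genes above the 25th percentile, 6 with only the groups compared and 5 with the replicate block, and 0 to 6 with 1 replicate left out. Between 1 h and 4 h the count of 5 became 3 after quantile normalisation and 3 with technical array 2 alone at 4 h, and 0 to 10 with 1 replicate left out. Between 2 h and 4 h the count of 0 became 4 with only the groups compared and stayed 0 with 1 replicate left out. The F test's count of 2 became 7 with a trended prior and 4 with the replicate block, and 0 to 6 with 1 replicate left out. At 2 h against control the count was 0 under every alternative run. The share of all genes passing moved too. With a trended prior 7.69% of the followed genes passed at 4 h against control, beside 6.07% of all genes. The same prior gave 17.9% beside 11.2% in the F test and 7.69% beside 3.93% from 1 h to 2 h. It also gave 10.3% beside 7.08% at 1 h and 17.9% beside 17.1% from 1 h to 4 h. Fitting only the groups compared gave 15.4% beside 4.9% from 1 h to 2 h, and 10.3% beside 11.9% from 2 h to 4 h. At 1 h that fit gave 0% beside 0.496%. Quantile normalisation gave 7.69% beside 11.6% from 1 h to 4 h and 5.13% beside 2.84% from 1 h to 2 h. Median centring gave 7.69% beside 3.21% from 1 h to 2 h. The replicate block gave 12.8% beside 9.07% at 1 h and 12.8% beside 5.52% from 1 h to 2 h. In the F test it gave 10.3% beside 7.07%. Technical array 2 alone at 4 h gave 7.69% beside 11.4% from 1 h to 4 h. Over genes above the 25th percentile 1 of 28 passed at 1 h and 2 of 28 at 4 h. Of all 4130 genes there, 124 passed at 1 h and 293 at 4 h. From 1 h to 2 h the counts were 0 of 28 and 61 of 4130. Same-numbered samples deviated together with r = 0.0959, 0.19 and 0.0333 in the 3 pairs of groups, so the numbers were not taken to pair the samples. The 4 h sample has no pair and is not in the block fit. Over all genes called at 1 h, the count of 272 became 1 without control replicate 1, 1005 without 1 h replicate 1 and 27 without either 2 h replicate. Among dim genes the low signal limits what can be told.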
